A study of Homo sapiens with 2 samples.

Results

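Solute carriers (SLC) are membrane proteins that move nutrients, ions, metals and metabolites across the plasma membrane and the membranes of organelles, and they are numbered in families that mostly share a kind of substrate. Most are exchangers or are coupled to the sodium or proton gradient. Tumour cells rely on them for amino acids, sugars, phosphate, vitamins and metals, and the carriers of the inner mitochondrial membrane link the matrix to the cytosol.

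The members described here are the array probes that name 1 gene whose symbol starts with SLC and a digit and whose normalized intensity was 100 or more in either of the 2 lines. The symbols SLC2A1, SLC2A3, SLC3A2, SLC7A5, SLC7A11, SLC24A5, SLC45A2, SLC25A4, SLC25A5 and SLC25A6 were left out of the set by name. This gave 117 probes of 103 genes, out of 485 SLC probes of 365 genes and 29187 probes in all. The other SLC probes were 351 under the intensity limit in both lines and 17 with the symbols left out. Another 2 SLC probes over the limit name several genes and were not used. Of the 103 member genes, 93 passed the limit in both lines, 8 only through the NFAT1-shRNA line and 2 only through the NT-shRNA line. A gene that passed through a single line was bound to be higher there. Just inside the limit, SLC26A6 read 13.3 with the NFAT1 hairpin and 108 with the NT hairpin, SLC9B2 read 110 and 90.3, and SLC31A2 read 110 and 83. Just outside, SLC35G1 read 99.1 and 72, SLC30A7 98.1 and 76.9, and SLC35F1 97.8 and 59.8.

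Gene expression had been measured with Cy5-labelled RNA on single-colour microarrays in A375SM, a highly metastatic human melanoma cell line. One group was that line after lentiviral delivery of a short hairpin RNA against NFAT1, the calcium-regulated transcription factor encoded by NFATC2, and the other was the same line with a non-targeting (NT) hairpin. Both were sorted for the brightest 50% of GFP-positive cells, and each is a single transduced population. The design states 3 biological replicates per line, but the files used here hold 1 combined intensity per probe and line with the authors' error, so the spread between replicates is unknown and each direction below is between the lines as labelled. A value such as 390 ± 23.3 is that intensity and its deposited error, whose kind is not stated.

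The detection p-value was under 0.01 for 9185 probes of the line with the NFAT1 hairpin and 8783 of the other, and the authors' deposited table gives a log2 ratio for 12149 probes. The targeted gene gives no check of the labels: the detected NFATC2 probe read 279 ± 15.7 under the NFAT1 hairpin against 199 ± 15.2, which the authors' deposited table lists as a log2 ratio of 0.12 (Benjamini-Hochberg adjusted p = 0.819). The other NFATC2 probe, detected in neither line, read 41.6 ± 9.55 against 57.8 ± 10.6. It stood at -0.23 by the authors' deposited table, with an interval that includes 0 (-1.06 to 0.60). All 7 melanocyte markers looked for (PMEL, MLANA, TYR, DCT, TYRP1, SOX10 and MITF) were detected under the NFAT1 hairpin and 6 of them under the NT hairpin. Their summed intensity was 2798 against 1786, with the shift between the lines given below left in. TYR and DCT of the pigment pathway stood at 1.63 and 1.01 by the authors' deposited table (adjusted p = 1.2e-21 and 5.37e-05). PMEL at 0.13, SOX10 at 0.01, MLANA at -0.29 and MITF at -0.50 there did not pass, and TYRP1 had no ratio. Of 4 fibroblast markers, LUM was detected in both lines (1888 against 1472), COL1A2 only under the NT hairpin at 82.7, and COL1A1 and DCN in neither. The fibroblast sum of 8205 against 1597 holds an undetected DCN value of 6267 ± 7799 under the NFAT1 hairpin. KRT14, 1 of 2 keratinocyte markers, was detected in both lines (179 against 167), and none of 3 leukocyte and 2 endothelial markers in either. The part of these markers in the results on carriers was not tested. The intensities of the median gene were 1.23-fold higher in the NFAT1-shRNA line (0.30 on the log2 scale). The authors' log2 ratio has a median of -0.02 over all genes, so it has removed that shift as a whole. The amount removed differs between probes. From the plain log2 quotient of the intensities to the authors' ratio, SLC25A3 went from 0.20 to 0.04 and SLC36A4 from 0.14 to -0.30. All changes below are by the authors' ratio unless another scale is named.

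The carriers that fell were SLC1A1, SLC1A4, SLC5A3, SLC20A2, SLC25A1, SLC39A11 and SLC50A1, and those that rose were SLC22A17 and SLC39A1. Of 102 member genes with a ratio, 7 fell and 2 rose in the NFAT1-shRNA line at an adjusted p under 0.05, and 93 did not pass. The authors' p-values were adjusted over all 9516 genes with a ratio, each gene standing on its brightest probe. That is 8.82% of the members, where 7.55% of all genes (3.35% higher, 4.19% lower) and 9.79% of genes over the same intensity limit passed, so the share lies near the background. In the lower direction the share was 6.86% of members against 5.47% of genes over the limit, and in the higher direction 1.96% against 4.32%. Among the 93 members over the limit in both lines, 8 passed (8.6%), against 9.86% of all genes over it in both lines. The median log2 ratio of the members in the authors' deposited table was -0.10, against 0.01 for genes over the limit and -0.02 for all genes. A total of 87 of the 102 ratios were smaller than 0.5 in absolute value (85.3%, against 84.9% of genes over the limit), and only that of SLC25A1 exceeded 1. The direction of the balance rests on the removed shift: with the plain quotient of the intensities 26 members were higher and 4 lower, and of all genes 93.5% of the calls were higher, against 44.4% with the authors' ratio. Of the 9 called genes, 6 were called in the same direction on that scale too (SLC1A1, SLC1A4, SLC5A3 and SLC25A1 lower, SLC22A17 and SLC39A1 higher), whereas SLC20A2, SLC39A11 and SLC50A1 lost the call.

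**Figure D1:**
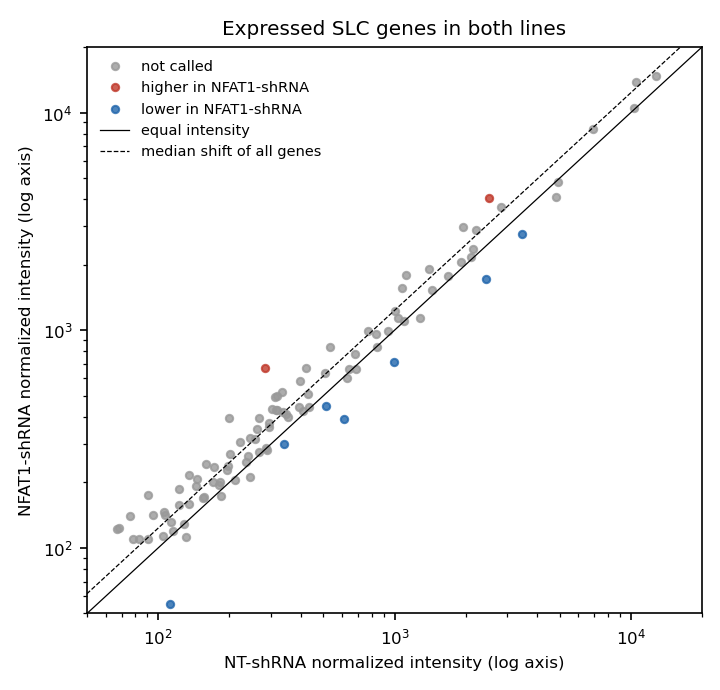
Normalized intensity in the NFAT1-shRNA line against that in the NT-shRNA line for the 102 member genes with a ratio, on log axes; the solid line is equal intensity and the dashed line the 1.23-fold shift of the median gene. Most genes lie along the dashed line, the 2 genes called higher lie above it and the 7 called lower lie under the solid line.

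The error that the authors deposited beside each intensity had a median of 7.48% of the signal under the NFAT1 hairpin and 9.39% under the NT hairpin over the member genes. It was over 30% in either line for 5 genes. They were SLC4A2 (424 ± 322 in the NFAT1-shRNA line), SLC25A39 (194 ± 122 there), SLC25A17 (105 ± 46.4 in the NT-shRNA line), SLC26A10 (a pseudogene by its current RefSeq symbol SLC26A10P, 115 ± 59.9 there) and SLC26A6, which was detected in neither line and has no ratio. None of the 5 passed. Both lines detected 95 of the member genes.

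**Figure D2:**
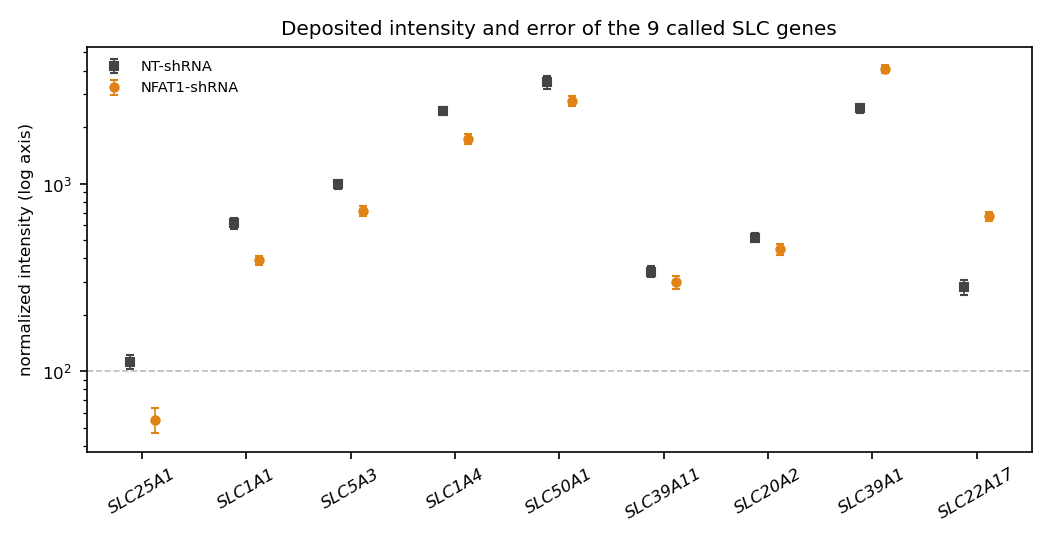
Deposited intensity of the 9 called SLC genes in the NT-shRNA line (squares) and the NFAT1-shRNA line (circles), on a log axis, with the authors' error as bars; the dashed line is the intensity limit of 100. SLC25A1 is under the limit in the NFAT1-shRNA line, and SLC39A1 and SLC22A17 are the genes that are higher there.

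Carriers of amino acids and peptides held 2 of the falls. Of 13 genes with a ratio, 2 fell, none rose and 11 did not pass, with a median log2 ratio of -0.10. Both genes that fell belong to the SLC1 family. SLC1A1 (Entrez gene 6505), which takes up glutamate, aspartate and cysteine with sodium, read 390 ± 23.3 under the NFAT1 hairpin against 614 ± 40.6 under the NT hairpin. The error ranges of the lines do not touch. The authors' deposited table lists a log2 ratio of -0.99 for it, or 1.99-fold (95% interval by the deposited errors -1.24 to -0.74, adjusted p = 1.21e-06). SLC1A4, an exchanger of alanine, serine, cysteine and threonine, read 1728 ± 105 against 2429 ± 120, again without overlap. The authors' deposited table puts SLC1A4 at -0.75 (interval -0.97 to -0.53, adjusted p = 1.4e-05). The third expressed member of that family, the glutamine transporter SLC1A5, read 433 ± 22.7 against 303 ± 30.1. Its log2 ratio of 0.16 from the authors' deposited table did not pass (interval -0.16 to 0.48, adjusted p = 0.741).

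The other carriers of this class did not pass. SLC38A10, of the sodium-coupled neutral amino acid family, has 3 member probes with log2 ratios of 0.26, 0.01 and 0.44 from the authors' deposited table. SLC38A6 of the same family read 212 against 244, listed at -0.55 in the authors' deposited table (adjusted p = 0.15). SLC38A2, another neutral amino acid transporter, stood at 0.02 in the authors' deposited table. SLC43A3, which the family number places here although it is known to carry purine nucleobases, passed the intensity limit only in the NFAT1-shRNA line. It read 174 there against 90.2 and stood at 0.61 in the authors' deposited table (adjusted p = 0.214). The lysosomal histidine and peptide transporter SLC15A4 read 1137 ± 79.6 against 1277 ± 88.5. Its error ranges overlap on the intensity scale, and its log2 ratio of -0.46 from the authors' deposited table missed the threshold (adjusted p = 0.0997). It passed with p-values computed from the propagated errors, with the centred quotient and with an offset of 50. SLC15A4 has a single probe, so its call with the mean of the probes repeats the one from the propagated errors.

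The 250 bases before the most upstream annotated start of both SLC1 genes that fell are shown because NFAT1 binds a GGAAA core. RefSeq sequences on GRCh38.p14 are given, with GGAAA on either strand in capitals (TTTCC on the strand shown). The SLC1A1 window is chr9:4490218-4490467 on the plus strand, and that of SLC1A4 is chr2:64988229-64988478 on the plus strand.
SLC1A1: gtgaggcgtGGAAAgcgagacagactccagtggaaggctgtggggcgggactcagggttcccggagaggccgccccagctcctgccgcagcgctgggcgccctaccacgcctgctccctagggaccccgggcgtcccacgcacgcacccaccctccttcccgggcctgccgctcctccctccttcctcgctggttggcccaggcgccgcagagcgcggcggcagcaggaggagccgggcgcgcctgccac
SLC1A4: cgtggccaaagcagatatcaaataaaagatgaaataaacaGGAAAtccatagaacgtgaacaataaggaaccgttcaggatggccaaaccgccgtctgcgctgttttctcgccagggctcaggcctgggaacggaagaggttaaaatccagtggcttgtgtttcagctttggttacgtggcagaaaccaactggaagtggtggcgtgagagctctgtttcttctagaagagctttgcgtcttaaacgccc
Each window holds 1 match. So do many others: 55.6% of the 35116 windows of that length in the RefSeq table hold GGAAA, as do 53.7% of the 8544 windows of genes over the intensity limit and 49.2% of the 122 windows found for 83 of the member genes. Of the windows found for called members, GGAAA was in 6 of 8 for genes that fell and 4 of 4 for genes that rose. It was absent before the other annotated start of SLC1A4 and from the window of SLC5A3, which also fell. These counts are small, and whether they differ from the share over all windows was not tested. A match is a stretch of letters and not a binding site.

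Among carriers of sugars and sugar phosphates, 2 of 6 genes fell, none rose and 4 did not pass, while the class median was 0.08. SLC5A3, which takes up the osmolyte myo-inositol with sodium, read 713 ± 44.7 in the NFAT1-shRNA line against 991 ± 56.4. The authors' deposited table puts it at -0.79 (1.73-fold, interval -1.03 to -0.55, adjusted p = 6.61e-06). The sugar transporter SLC50A1, the human member of the SWEET family, read 2752 ± 168 against 3478 ± 280. Its log2 ratio was -0.58 in the authors' deposited table (interval -0.86 to -0.29, adjusted p = 0.000327). For both genes the error ranges are separate, with the NT-shRNA line higher. SLC37A3, which its family number places in this class, read 2871 against 2215 and did not pass, with 0.13 in the authors' deposited table. The facilitative transporter SLC2A6 was detected, and passed the intensity limit, only in the NFAT1-shRNA line (122 ± 10.2 against 67.1 ± 10.3). It stood at 0.53 by the authors' deposited table and did not pass (interval 0.04 to 1.02, adjusted p = 0.345).

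**Figure D3:**
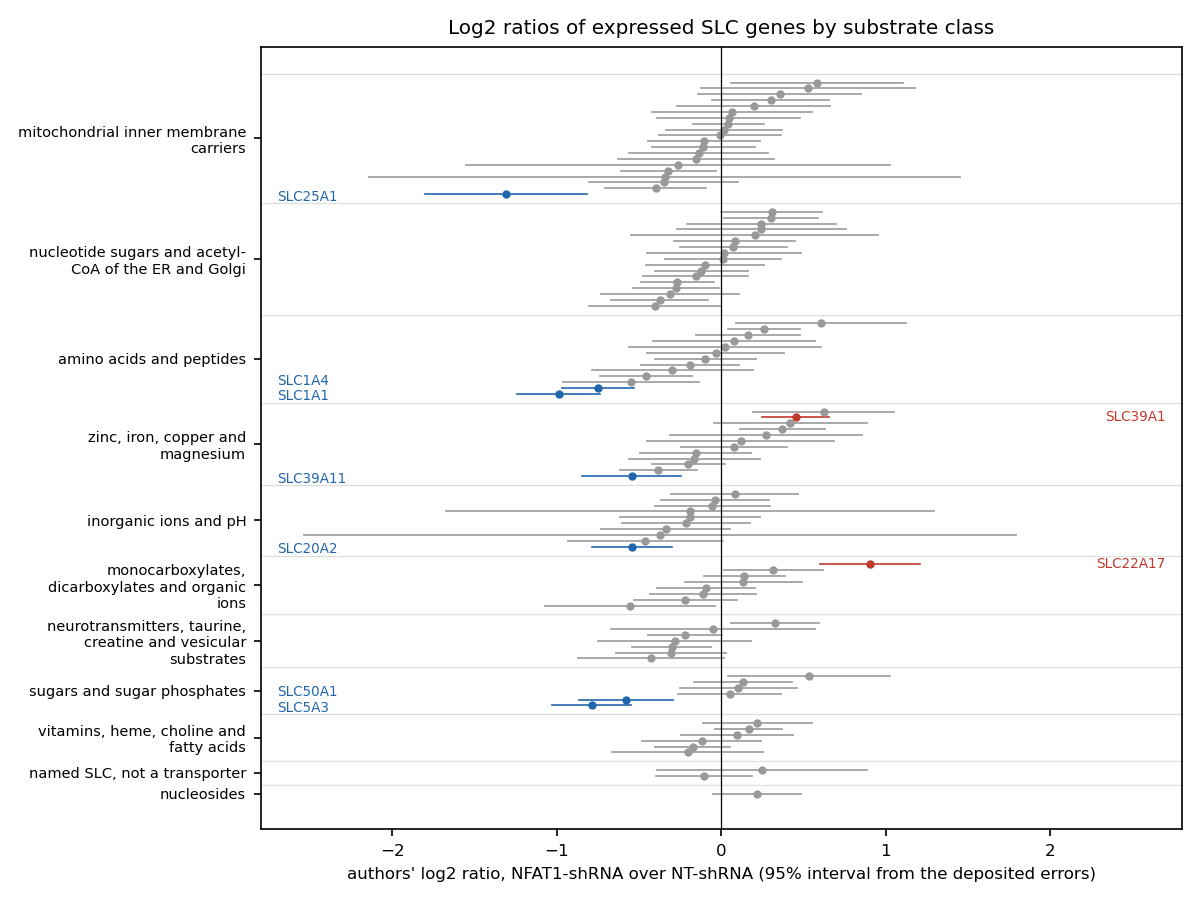
Log2 ratio (NFAT1-shRNA over NT-shRNA) taken from the authors' deposited table for the 102 member genes (points), with 95% intervals from the deposited errors (lines), grouped by substrate class; genes called lower are blue, called higher red and not called grey. The ratios of every class with more than 1 gene lie on both sides of 0, and called genes sit in 6 classes.

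Metal carriers held 1 rise and 1 fall among 12 genes, with 10 that did not pass and a median log2 ratio of 0.10. Both belong to the ZIP (SLC39) family, whose members bring zinc into the cytosol. SLC39A1 (ZIP1), a zinc importer of the plasma membrane, read 4070 ± 190 under the NFAT1 hairpin against 2513 ± 138, far outside each other's error. Its log2 ratio was 0.45 in the authors' deposited table (1.37-fold, interval 0.25 to 0.66, adjusted p = 0.00262). SLC39A11 (ZIP11) read 299 ± 24.3 against 339 ± 22.9. The intensities are close and their error ranges overlap. The log2 ratio of -0.55 from the authors' deposited table passed (interval -0.84 to -0.25, adjusted p = 0.0131), whereas the plain quotient, with the shift left in, was -0.18.

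No other ZIP gene passed among the 7 measured. SLC39A6 (ZIP6) came near on its brighter probe, which read 2992 against 1940 and stood at 0.37 in the authors' deposited table (adjusted p = 0.0621), and the other probe had 0.23. SLC39A6 passed with the plain quotient, with an offset of 50 and among genes detected in both lines. SLC39A10 stood at 0.27, SLC39A3 at -0.20, SLC39A7 at -0.17 and SLC39A4 at -0.16 by the authors' deposited table. Of the SLC30 family, most of whose members move zinc out of the cytosol, SLC30A5 had log2 ratios of 0.42 and 0.33 on 2 probes and SLC30A9 0.08 in the authors' deposited table. SLC31A1, the high-affinity copper importer, read 395 ± 29.9 against 200 ± 26.2. Its error ranges are well apart, yet the log2 ratio of 0.62 from the authors' deposited table missed the threshold (interval 0.20 to 1.05, adjusted p = 0.105). It passed with the plain quotient, with the centred quotient and with an offset of 50. SLC41A3, of a magnesium transporter family, stood at -0.38 in the authors' deposited table (adjusted p = 0.0866), and passed with the centred quotient and with p-values from the propagated errors.

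The windows before the most upstream starts of the called ZIP genes are shown as a pair that moved in opposite directions, with GGAAA on either strand in capitals. That of SLC39A1 is chr1:153968185-153968434 and that of SLC39A11 is chr17:73092689-73092938, both on the minus strand and printed in the gene's direction.
SLC39A1: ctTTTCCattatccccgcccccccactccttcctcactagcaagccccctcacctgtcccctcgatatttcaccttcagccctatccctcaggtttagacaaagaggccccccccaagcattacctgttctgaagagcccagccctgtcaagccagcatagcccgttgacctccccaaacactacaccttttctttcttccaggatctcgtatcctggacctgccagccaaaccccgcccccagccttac
SLC39A11: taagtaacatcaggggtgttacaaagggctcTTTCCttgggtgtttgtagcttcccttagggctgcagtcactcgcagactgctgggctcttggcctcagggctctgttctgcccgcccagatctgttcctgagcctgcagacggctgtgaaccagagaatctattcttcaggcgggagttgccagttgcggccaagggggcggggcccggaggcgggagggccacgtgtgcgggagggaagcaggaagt
Each holds 1 GGAAA match. The core TGCNCNC of the metal response element (either strand, N for any base) was absent from the SLC39A1 window shown, present with 2 matches before its other annotated start, and present with 1 match in the SLC39A11 window. It is a common string, found in 49.1% of all windows, 55% of those of genes over the intensity limit and 54.1% of member windows. The E-box CACGTG, bound by basic helix-loop-helix factors, was in the SLC39A11 window. It was in 14.8% of the member windows, against 8.65% of windows of genes over the limit and 6.34% of all windows. TGATGNAAN, the core of the amino acid response element, was in 3.28% of member windows, 1.72% of those of genes over the limit and 3.13% of all windows, and in none of the 12 windows of called members. The window counts take every annotated start of a gene, and matches of these motifs may overlap one another.

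Carriers of monocarboxylates, dicarboxylates and organic ions held the other rise: 1 of 8 genes rose, none fell and 7 did not pass (median 0.02). SLC22A17, known as a receptor for lipocalin-2, read 670 ± 37.7 under the NFAT1 hairpin against 282 ± 26, with error ranges far apart. The authors' deposited table puts it at 0.91, or 1.87-fold (interval 0.60 to 1.21, adjusted p = 3.39e-08). Like every called gene except SLC20A2, SLC22A17 had only 1 member probe. The window before its most upstream start is shown as that of the member with the highest ratio (chr14:23352888-23353137, minus strand, printed in the gene's direction, GGAAA on either strand in capitals).
SLC22A17: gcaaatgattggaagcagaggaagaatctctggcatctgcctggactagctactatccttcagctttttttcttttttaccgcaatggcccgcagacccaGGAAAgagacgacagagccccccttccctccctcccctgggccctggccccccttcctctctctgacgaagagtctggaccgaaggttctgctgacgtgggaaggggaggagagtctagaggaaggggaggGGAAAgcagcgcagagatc
It holds 2 GGAAA matches. SLC22A18 (now SLC67A1) of the same class read 3680 against 2824 and stood at 0.14 by the authors' deposited table, and SLC22A7, an organic anion transporter, at 0.13. SLC16A1 (MCT1), a lactate and pyruvate transporter, had log2 ratios of -0.11 on its brighter probe and -0.55 on the other in the authors' deposited table. The bile acid family member SLC10A7 read 113 against 131, with -0.55 in the authors' deposited table and an adjusted p of 0.366.

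Carriers of inorganic ions included 1 fall, no rise and 9 genes that did not pass among 10 with a ratio. By sign alone 9 of the 10 ratios were below 0, with a median of -0.20, and the median of the plain quotients of the same genes was 0.05. The 9 include the pseudogene SLC26A10, detected only in the NFAT1-shRNA line, at -0.19 in the authors' deposited table (interval -1.67 to 1.29). SLC20A2 (PiT2), which takes up phosphate with sodium, read 447 ± 29.4 against 515 ± 28.6 on its brighter probe. Those intensities differ by little more than the sum of the errors, and the log2 ratio was -0.54 in the authors' deposited table (interval -0.79 to -0.30, adjusted p = 0.00444). Its other probe passed the intensity limit only in the NFAT1-shRNA line, so its intensity was bound to be higher there. That probe read 144 ± 17.8 against 89.4 ± 12.3, and stood at 0.40 in the authors' deposited table (interval -0.12 to 0.93). The intervals of the 2 probes do not overlap, and with the mean of both the gene had -0.07 and did not pass. The related phosphate transporter SLC20A1 (PiT1) read 4099 ± 332 against 4812 ± 702. Its log2 ratio of -0.46 from the authors' deposited table had an adjusted p of 0.266.

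The sulfate transporter SLC26A2 also had probes that differ. Its brighter probe read 2162 against 2115, or -0.19 by the authors' deposited table, and the other read 380 ± 28.8 against 527 ± 58.6 with -0.81 (interval -1.19 to -0.43). The gene did not pass on its brighter probe but did with the mean of both probes, as did SLC16A1. The sodium-potassium-chloride cotransporter SLC12A2 stood at 0.08 and 0.20 with its 2 probes by the authors' deposited table, and the potassium-chloride cotransporter SLC12A4 had -0.34.

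**Figure D4:**
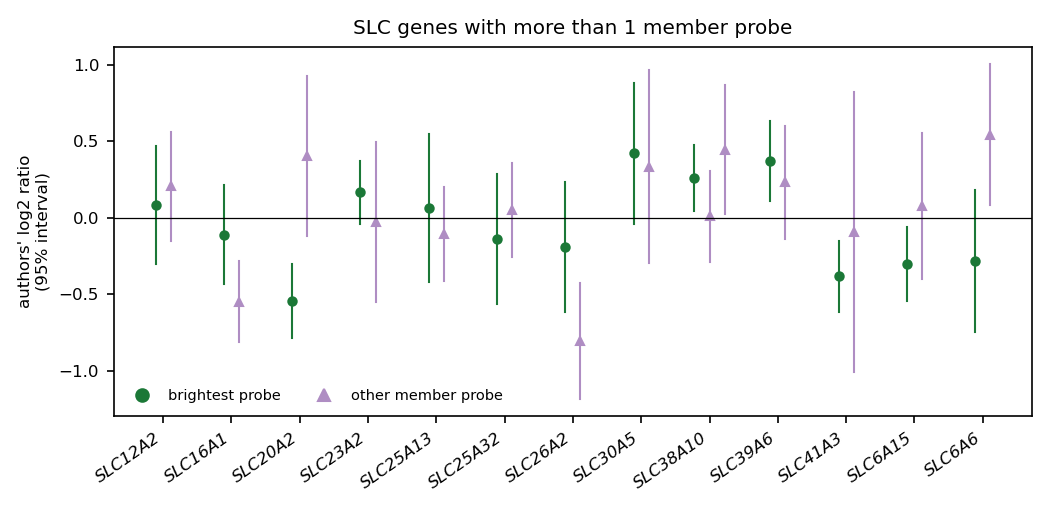
Log2 ratios in the authors' deposited table of each member probe, with 95% intervals from the deposited errors, for the 13 SLC genes with more than 1 member probe; circles are the brightest probe and triangles the others. Probes of 1 gene lie farthest apart for SLC20A2 (0.95), SLC6A6 (0.83) and SLC26A2 (0.61). The triangles of SLC20A2 and SLC6A6 are probes that passed the intensity limit only in the NFAT1-shRNA line.

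Of 20 genes of the SLC25 family, mostly carriers of the inner mitochondrial membrane, 1 fell, none rose and 19 did not pass. Of their ratios, 9 were above 0 and 11 below, with a median of -0.06. The gene that fell was SLC25A1, the citrate carrier that exports citrate for lipid synthesis. It read 55.2 ± 8.48 under the NFAT1 hairpin, where it was not detected, against 113 ± 9.28 under the NT hairpin. It entered the set only through the latter. The authors' deposited table puts it at -1.31 (interval -1.80 to -0.82, adjusted p = 0.000101). With the undetected line held at its smallest detected intensity, SLC25A1 was at least 1.75-fold lower under the NFAT1 hairpin. The phosphate carrier SLC25A3 read 14640 ± 804 against 12720 ± 665, with 0.04 in the authors' deposited table (interval -0.17 to 0.26). The folate and FAD carrier SLC25A32 had -0.14 and 0.05 on 2 probes, the aspartate-glutamate carrier SLC25A13 0.06 and -0.11, and the oxoglutarate carrier SLC25A11 -0.11 in the authors' deposited table.

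Larger ratios that did not pass were seen for SLC25A14, an uncoupling protein homologue, and SLC25A40, tied to mitochondrial glutathione import. SLC25A14 passed the intensity limit only in the NFAT1-shRNA line. It read 140 there against 75.6, with 0.58 in the authors' deposited table (adjusted p = 0.236). SLC25A40 was detected, and passed the intensity limit, only in the NFAT1-shRNA line, at 123 ± 11.8 against 68.3 ± 14.3. It stood at 0.52 by the authors' deposited table, with an interval that includes 0 (-0.13 to 1.18, adjusted p = 0.517).

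No gene passed in the remaining classes. Of 17 carriers of nucleotide sugars and acetyl-CoA in the endoplasmic reticulum and Golgi, which feed glycosylation and acetylation and include family members with no settled substrate, 9 ratios were above 0 and 8 below, between -0.40 and 0.31. SLC35B1, an exchanger of ATP for ADP in the endoplasmic reticulum, read 4817 ± 306 against 4908 ± 231, with -0.27 in the authors' deposited table (adjusted p = 0.205). The SLC35G3 probe read 8405 against 6890 with 0.08 in the authors' deposited table. SLC35A1, which supplies CMP-sialic acid to the Golgi, stood at -0.40, SLC35A3, a UDP-N-acetylglucosamine carrier, at -0.38, and SLC35A4 at 0.30 by the authors' deposited table. In the class of neurotransmitter, taurine, creatine and vesicular carriers, set by family number, 6 of 7 ratios were below 0, with a median of -0.28. Those 6 include SLC6A15 and SLC6A19, which carry neutral amino acids. The vesicular nucleotide transporter SLC17A9 was the exception at 0.32 in the authors' deposited table (adjusted p = 0.266). With the mean of the probes of each gene 5 were below 0 with a median of -0.11. By the plain quotient, with the shift left in, 5 were above 0 with a median of 0.08. The neutral amino acid transporter SLC6A15 read 1098 in both lines and the creatine transporter SLC6A8 995 against 940 with -0.30 and -0.22 in the authors' deposited table once the shift of all genes was removed. The other SLC6A15 probe had 0.07 (interval -0.40 to 0.55) by the authors' deposited table. The taurine transporter SLC6A6 had -0.28 on its brighter probe by the authors' deposited table, and 0.54 (interval 0.08 to 1.00) on the other, which was detected, and passed the intensity limit, only in the NFAT1-shRNA line.

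Among 6 carriers of vitamins, choline and fatty acids the ratios ran from -0.21 to 0.22, the narrowest range of the classes with over 5 genes. The riboflavin transporter SLC52A2 read 13834 ± 970 against 10561 ± 991, with 0.22 in the authors' deposited table (interval -0.11 to 0.55, adjusted p = 0.536). SLC5A6, which takes up biotin and pantothenate, read 10490 ± 558 against 10332 ± 627 and stood at -0.17 by the authors' deposited table. The ascorbate transporter SLC23A2 had 0.17 and -0.03 with 2 probes by the authors' deposited table. The nucleoside transporter SLC29A1 read 586 ± 29.8 against 397 ± 31.9, with 0.22 in the authors' deposited table (adjusted p = 0.414). Besides the pseudogene SLC26A10, the set holds a pair of genes that are named for a carrier and are not one. SLC9A3R1 (now NHERF1), a scaffold protein, stood at -0.11 and SLC2A4RG, a transcription factor, at 0.25 in the authors' deposited table, and neither passed.

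Genes that work beside the carriers were looked at as lists. Of 9 measured genes for the sodium pump and for partner proteins and kinases, 1 rose and none fell (7.55% of all genes passed), with a median log2 ratio of 0.16. The gene was ATP1B1, a beta subunit of the sodium pump, which makes the sodium gradient used by the SLC1, SLC5, SLC6 and SLC20 families. It read 605 ± 39.9 against 288 ± 35.6, with 0.73 in the authors' deposited table (interval 0.34 to 1.13, adjusted p = 0.00103). NPTN, a chaperone of monocarboxylate transporters, had 0.60 in the authors' deposited table and did not pass. Among 3 measured genes of the metallothionein and zinc-sensing list, MT1A rose and MT2A fell (of all genes, 3.35% were called higher and 4.19% lower), with a median of -0.42. The zinc-binding protein MT1A read 2173 ± 120 against 1246 ± 307, and MT2A read 3304 ± 232 against 4247 ± 455. The authors' deposited table puts MT1A at 0.56 (adjusted p = 0.0297) and MT2A at -0.58 (adjusted p = 0.0358), but the interval of MT1A from the deposited errors, -0.15 to 1.27, includes 0. The third gene, MT1X, read 523 ± 33.1 against 555 ± 27.4 and stood at -0.42 by the authors' deposited table without passing (interval -0.65 to -0.19, adjusted p = 0.0533). Near-identical metallothionein copies may share signal on such probes, and this was not tested.

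Of 12 measured ABC transporters, the other large class of membrane carriers, 2 fell and none rose, where 4.19% of all genes fell, with a median of -0.17. They were the organic anion exporter ABCC5, at -0.51 in the authors' deposited table (338 ± 18.2 against 374.5 ± 20.9, adjusted p = 0.00817), and the peroxisomal fatty acid transporter ABCD3, at -0.48 (830 ± 50.3 against 936 ± 85.3, adjusted p = 0.035). The error ranges of the lines overlap for both, as intensities with the shift left in. None passed among 8 measured genes of the mitochondrial pyruvate carrier, sideroflexin and uncoupling protein list (median 0.15) or among 2 organic anion transporting polypeptides (median -0.35).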

How the data were processed

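RNA with integrity numbers between 9.3 and 9.9 was labelled with Cy5, per the labels' protocols. The normalized intensities are linear values deposited by the authors, 1 per probe and line, with an error of unstated kind. The detection p-value, the log2 ratio of the lines and its p-value were computed by the authors, per the file headers. The sources used here do not say how replicates were combined, intensities normalized or p-values obtained. The array named in the extract protocol does not go with the dye and probe names, so no maker is given.

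Entrez numbers matched RefSeq (GRCh38.p14) for all 103 member genes. Each gene stands on its brightest probe, and the authors' p-values were adjusted by Benjamini-Hochberg over 9516 genes, a step tested on simulated data. Intervals of 95% treat the propagated deposited errors as normal standard errors. A line detected a probe at a detection p-value under 0.01. For a gene whose undetected line read below the smallest detected intensity, "at least" is a bound on the authors' scale, in which the dim line stands at that smallest intensity (78.3 for NFAT1-shRNA, 60.4 for NT-shRNA). Signals of different probes are not compared.

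Named are called members, the 2 brightest of each class, those with an absolute ratio of 0.5 or more (up to 3 a class), those detected in 1 line where a bound holds, and called or large-ratio partner genes; any other was chosen after its values were seen. Members, classes and lists were chosen with earlier results of these data known. Python 3.11.15, pandas 2.3.3, numpy 2.4.6, scipy 1.17.1 and matplotlib 3.10.9 were used. The number of arrays limits the precision.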

Additional observations from a re-analysis of the deposited data

How the results depend on the processing

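Across 11 alternatives, at least 6 of the 9 called genes were called again under each one that tested them all, and the count of called members lay between 8 and 13 except with the plain quotient. That quotient, with no centring, called 30 members (29.4%, against 23.9% of all genes). It moved the members' median log2 value from -0.10 to 0.25 (0.30 for all genes) and the medians of 9 classes upward, since it keeps the overall shift between the lines. It turned the ratios of 38 uncalled members from below to above 0, and the ratio of no called gene. They include NHERF1 to 0.25, SLC16A1 to 0.20, SLC25A32 to 0.11, SLC26A2 to 0.031, SLC5A6 to 0.022 and SLC6A8 to 0.083. The centred quotient turned 4 members, SLC25A3 (-0.10) and SLC35G3 (-0.015) among them, and an offset of 50 turned 5, SLC25A3 (-0.028) among them, all uncalled. The mean of the probes turned SLC6A6 and SLC25A13. SLC20A2 lost its call with the mean of its probes and SLC39A11 at an adjusted p under 0.01. The share of members called was 10.8% with the mean of the probes (8.42% of all genes) and 7.84% at that stricter threshold (4.45% of all genes). The members' share was 6.43% when members were taken at an intensity of 50 or more, below the 7.55% of all genes at any intensity. It was also below among genes detected in both lines (9.47% against 10.6%). With 13 calls each, the centred quotient added SLC15A4, SLC31A1, SLC35B1 and SLC41A3, and the offset of 50 added SLC15A4, SLC17A9, SLC31A1 and SLC39A6. Those calls are 12.7% of the members, against 9.69% of all genes with the centred quotient and 9.55% with the offset. Adjusting over all probes called 11 of 116 member probes (9.48%, against 6.91% of all probes with a ratio), SLC16A1 and SLC26A2 among them. No paired analysis was possible because the files hold 1 combined value per line, and for the same reason no replicate could be left out. Signals near background limit SLC25A1, and errors of over 30% limit the 5 genes named for them.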
